A study of Rattus norvegicus with 22 samples.

Results

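The genes described here are Mbl2, C1s and C1r, which encode proteins that start the complement cascade. They were taken by name from the deposited table of male rat livers and account for 3 of its 1325 genes and 4 of its 1365 rows, since Mbl2 stands in 2 rows with the same values. RNA-seq libraries were made from livers of Wistar rats aged 110 postnatal days, 1 per animal. The males compared were 6 offspring of mothers given the control (C) diet and 5 offspring of mothers given the obesogenic (MO) diet. The labels describe the mothers' diets only by these names and do not say how many litters the animals came from, so the p-values rest on the spread among these animals alone. A further 6 control and 5 MO females, of the same strain and age, have a table of their own in which none of the 3 genes was listed, and the 3 genes in females are not analysed here.

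Complement is a set of plasma proteins, made mostly by hepatocytes, that marks microbes and damaged cells for removal. Mannose-binding lectin, the product of Mbl2, recognises sugar patterns on surfaces and carries associated serine proteases, which is the start of the lectin pathway. In the classical pathway the recognition molecule C1q, made largely by macrophages, holds the serine proteases C1r and C1s. C1r activates itself and then C1s, and C1s cleaves C4 and C2, the same substrates on which the lectin pathway acts.

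Levels are given in RPM, read numbers per library brought to the same total, and the depth read from the values was 7890000 to 11170000 reads in control males and 10530000 to 11590000 in MO males. The table holds only transcripts already selected for a difference: the largest p-value in the authors' deposited table was 0.04964 and the smallest change 0.48 on the log2 scale. Of its rows, 1317 were lower and 48 higher in MO males, with a median log2 change of -0.58. Of 12 hepatocyte markers only Cps1, the first enzyme of the urea cycle, was listed, at 796.5 to 1900 RPM. Within this marker list the tissue label could therefore be checked only by Cps1. Rmrp, an RNA without a poly(A) tail, was at 1.20 and 1.52 RPM in control males 1 and 5, at 36.9 to 51.2 RPM in the other controls and at 1.71 to 3.11 RPM in MO males. By this 1 gene the MO males lay near control males 1 and 5 and far below the other controls. The labels name no kind of library or batch, and what sets these animals apart is not known. The 2 sets of control males, told apart here by Rmrp alone, are therefore also compared separately.

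All 3 genes were lower in MO males, to between 57.9% and 67.0% of the control mean, and MO male 3 had the highest level of each among the MO animals. Differences were tested with limma on log2(RPM + 1), a scale that understates the change of low genes, the more so the lower the level. The p-values were adjusted over all rows of the table with the Benjamini-Hochberg procedure. Since rows had been chosen for this contrast, 96.5% of them passed this test as lower at an adjusted p of 0.05, and that the 3 genes passed it says nothing particular about them. The p-values below describe the size of the change relative to the spread between animals. In whole liver, fewer cells of a type and less RNA per cell cannot be told apart.

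Mbl2, on chromosome 1 of the deposited table, was at 30.8 RPM in the lowest control male, 36.8 RPM at the median and 51.6 RPM in the highest. In MO males 1 to 5 it was at 22.8, 18.7, 26.9, 21.0 and 22.8 RPM. The groups did not overlap: 5 of 5 MO males lay below every control, as they did in 29.9% of all rows of the table. Control males averaged 38.8 ± 8.40 RPM (SD, n = 6) and MO males 22.4 ± 3.03 RPM (SD, n = 5), a log2 change of -0.75 ± 0.18 (SE; limma adjusted p = 0.0034). The exact permutation test of this gene, two-sided, gave p = 0.0022, which is the lower limit of the test in this design; 95.3% of the rows were lower with an exact p under 0.05. Of the lower rows, 19.0% fell by more. At about 196 to 516 reads per library, Mbl2 was the least deeply sampled of the 3 genes, and counting alone gives an error of 7.13% in the library with the fewest reads, against a spread between animals of 21.7% of the mean in controls and 13.5% in MO males.

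C1s, the protease that cleaves C4 and C2, lies on chromosome 4 of the deposited table. It was at 594.8 RPM in the lowest control male, 739.7 RPM at the median and 827 RPM in the highest. MO males 1 to 5 were at 459, 414, 676, 392 and 428 RPM. MO male 3 lay inside the control range, above control males 3 and 4, and the other 4 MO males lay below every control. Control males averaged 717 ± 83.1 RPM (SD, n = 6) and MO males 474 ± 116 RPM (SD, n = 5), a log2 change of -0.62 ± 0.18 (SE; limma adjusted p = 0.0071; exact permutation p = 0.0087). Without MO male 3 the change was -0.75 ± 0.18 (SE).

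C1r, the protease that activates C1s, is also on chromosome 4. It was at 708 RPM in the lowest control male, 937.7 RPM at the median and 1129 RPM in the highest, and at 572, 528, 781, 626 and 550.2 RPM in MO males 1 to 5. MO male 3 again lay inside the control range, above control male 4 only, and the other 4 MO males lay below every control. Control males averaged 912 ± 145 RPM (SD, n = 6) and MO males 611 ± 101 RPM (SD, n = 5), a log2 change of -0.58 ± 0.17 (SE; limma adjusted p = 0.0082; exact permutation p = 0.0087). Among the lower rows 53.2% fell by more than C1r and 38.7% by more than C1s. In the RefSeq annotation of GRCr8 the non-coding RNA LOC102553847 overlaps C1r. Whether strand was used in counting is not given in the sources used here, so reads of that RNA cannot be told apart from those of C1r.

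**Figure D1:**
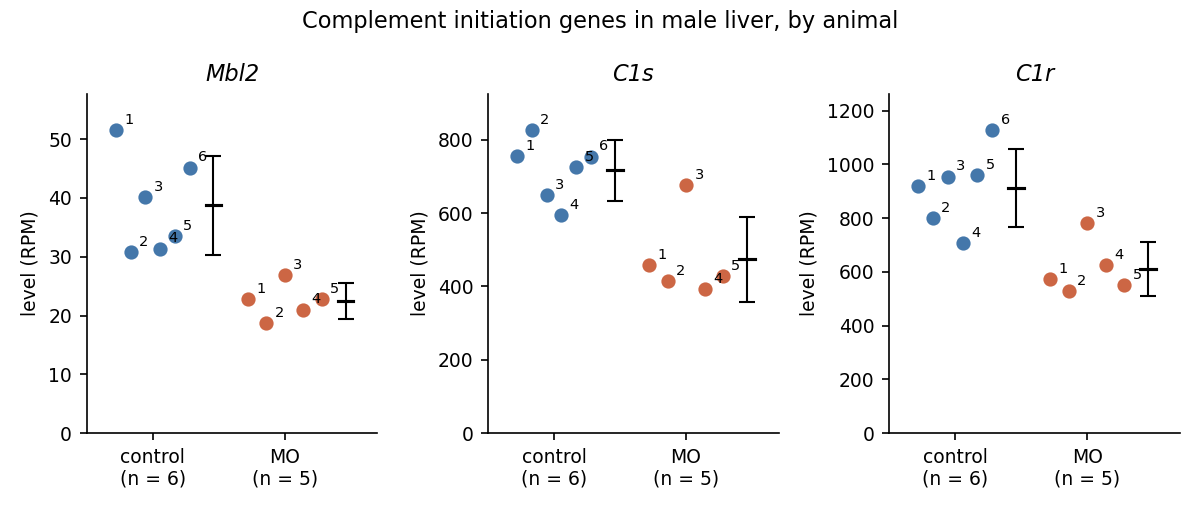
Level of Mbl2, C1s and C1r in RPM (vertical axes, from 0) in each control male and each MO male; points are animals with their replicate number, and the bar beside each group is the mean with its SD. The MO males lie below every control for Mbl2, while MO male 3 lies inside the control range for C1s (676 RPM) and C1r (781 RPM).

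The 3 genes were lower in MO males against either set of control males. In these selected rows, 493 passed as lower against control males 1 and 5 and 1285 against the other controls. Whether the difference seen in Rmrp bears on the levels of the 3 genes was not tested. Against control males 1 and 5 alone, the log2 change was -0.87 ± 0.22 (SE) for Mbl2, -0.67 ± 0.23 (SE) for C1s and -0.63 ± 0.21 (SE) for C1r. Against control males 2, 3, 4 and 6 alone, it was -0.68 ± 0.21 (SE), -0.59 ± 0.22 (SE) and -0.55 ± 0.22 (SE). Control males 1 and 5 did not stand together for Mbl2, at 51.6 and 33.4 RPM.

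Nearly all listed rows were lower in MO males, so the 3 genes were also read against the median log2 level of the listed rows in each library. This median was 4.29 to 4.92 in control males and 3.72 to 4.06 in MO males. Relative to it, Mbl2 was at 0.80 ± 0.22 (SD, n = 6) in controls and 0.64 ± 0.19 (SD, n = 5) in MO males, a difference of -0.16 ± 0.12 (SE; exact permutation p = 0.24), and of -0.075 without control male 1. C1s differed by -0.034 ± 0.18 (SE; exact permutation p = 0.84) and C1r by 0.0091 ± 0.096 (SE; exact permutation p = 0.91). Relative to the library median 3 of 5 MO males were below the control mean for each of the 3 genes. In the limma fit on centred libraries, in which 1.76% of rows passed as lower, none of the 3 genes passed (adjusted p = 0.997 each). The rows behind the median were themselves selected for this contrast. Centring therefore takes out a fall near the table median whatever its source, and the centred values cannot show whether the 3 genes changed. The log2 change of C1r, -0.58, was the same as the median of the table to 2 decimals, and the further fall of Mbl2 was within the spread between animals.

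A ratio of 2 genes within a library depends on how that library was scaled only through the 1 added to each RPM value, which weighs most on Mbl2, the gene with the fewest reads. The log2 ratio of Mbl2 to C1r was -4.53 ± 0.23 (SD, n = 6) in control males and -4.70 ± 0.13 (SD, n = 5) in MO males. This was a difference of -0.17 ± 0.11 (SE; exact permutation p = 0.18, 0.54 after adjustment over the 3 ratios). The ratio of Mbl2 to C1s differed by -0.13 ± 0.15 (SE; exact permutation p = 0.45, adjusted 0.67) and that of C1s to C1r by -0.044 ± 0.12 (SE; exact permutation p = 0.73, adjusted 0.73). With 10 RPM added in place of 1, the difference for Mbl2 to C1r was -0.0070, and without control male 1 it was -0.090. None of the 3 ratios differed between the groups by more than the spread between animals. The protease pair was not at a fixed ratio in single animals: the log2 ratio of C1s to C1r was 0.047 in control male 2, the only animal in which C1s was the higher of the pair in RPM, and as low as -0.67 in MO male 4. These ratios are in reads and are not corrected for transcript length, so they give no ratio of molecules.

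**Figure D2:**
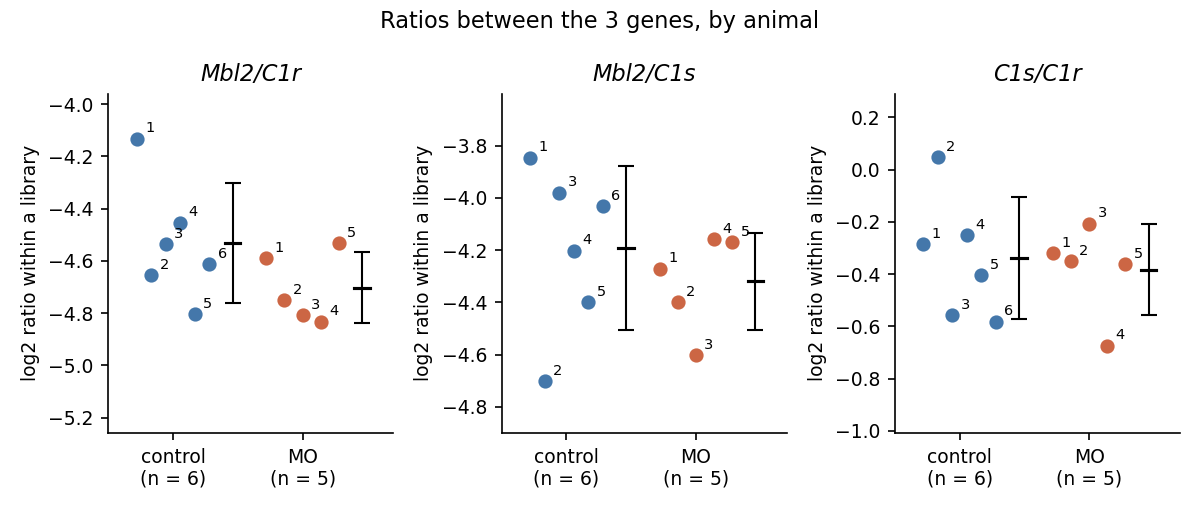
Log2 ratio of (RPM + 1) between each pair of the 3 genes within each library (vertical axes, each spanning the same range) in control and MO males; points are animals with their replicate number, bars the mean with its SD. The groups overlap for every pair, and control male 2 has the highest ratio of C1s to C1r, at 0.047.

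Of the other genes of the pathway, few were listed. The lists of complement genes hold 64 genes, of which 7 were listed in males, all lower and all passing limma in a table where 96.5% of rows did so. They were 5 of 17 initiation genes, 1 of 15 components and 1 of 32 regulators and receptors. The median log2 change of the 5 initiation genes was -0.62, beside -0.58 for all rows. Listed besides the 3 genes were Mbl1 and C1rl. The recognition chains C1qa, C1qb and C1qc, the lectin pathway proteases Masp1 and Masp2, and C2, C3 and C4 were outside the selected rows and are not analysed here.

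Mbl1 encodes the other mannose-binding lectin of rodents. It was at 230.3 RPM in the lowest control, 261 RPM at the median and 376 RPM in the highest, control male 6, and at 213, 188, 221, 193 and 162 RPM in MO males 1 to 5. As with Mbl2, all 5 MO males lay under the lowest control, as they did in 29.9% of all rows of the table. Its log2 change was -0.49 ± 0.17 (SE; limma adjusted p = 0.012), smaller than that of Mbl2 (-0.75), though the difference between the lectins was not tested. After centring, Mbl1 was at 0.094 and Mbl2 at -0.16.

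C1rl encodes a serine protease related to C1r. It was at 54.8 RPM in the lowest control, 78.6 RPM at the median and 85.5 RPM in the highest, and at 34.1, 45.8, 71.7, 45.2 and 48.0 RPM in MO males 1 to 5. MO male 3 lay inside the control range here too, and the other 4 MO males lay below it. Its log2 change was -0.63 ± 0.19 (SE; limma adjusted p = 0.0083). In the gene order of GRCr8 the protein-coding genes C1rl, C1r and C1s follow one another without another protein-coding gene between them. The next protein-coding genes on either side, Clstn3 and Lpcat3, were outside the selected rows. Next to Mbl2 lies Gldc, of the glycine cleavage system, which was listed at -1.39 ± 0.22 (SE). The neighbour on the other side of Mbl2, Dkk1, was outside the selected rows.

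Outside the list of initiation genes, Cfd, the protease factor D of the alternative pathway, had a log2 change of -0.60 ± 0.20 (SE; limma adjusted p = 0.011). In control male 1 it was at 9.09 RPM, while the other controls were at 12.6 to 16.7 RPM. In MO males it was at 6.08 to 14.0 RPM, and the groups overlapped. Cd59, which blocks the membrane attack complex on host cells, changed by -0.53 ± 0.18 (SE; limma adjusted p = 0.011), with means of 92.2 ± 16.4 RPM in controls (SD, n = 6) and 63.4 ± 11.01 RPM in MO males (SD, n = 5). MO male 3, high for C1s, C1r and C1rl, was at 7.94 RPM of Cfd and 55.8 RPM of Cd59, inside the range of the other MO males for both.

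**Figure D3:**
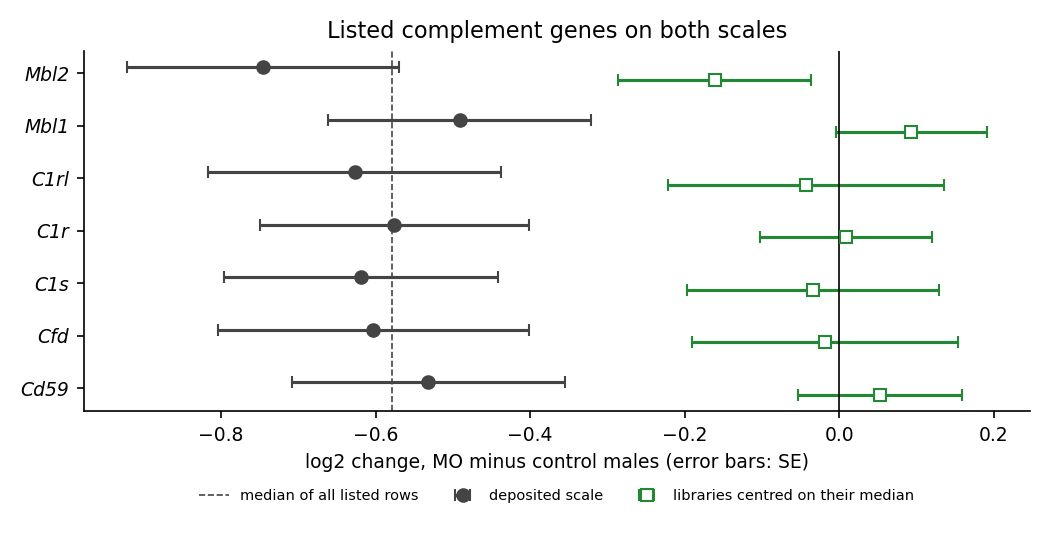
Log2 change between MO and control males (horizontal axis, error bars SE from limma) for the 7 listed complement genes, on the deposited scale (filled circles) and after centring each library on its median (open squares); the dashed line is the median change of all listed rows, -0.58. On the deposited scale the 7 genes lie between -0.75 (Mbl2) and -0.49 (Mbl1), and after centring they lie on both sides of 0.

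Other liver plasma proteins and their regulators were listed just as sparsely. Of 25 acute phase genes 2 were listed, serum amyloid P (Apcs, -0.53 ± 0.20, SE) and Itih3 (-0.48 ± 0.18, SE). Of 39 coagulation and other plasma protein genes 3 were listed, the plasmin inhibitor Serpinf2 (-0.64 ± 0.17, SE), heparin cofactor Serpind1 (-0.54 ± 0.18, SE) and the corticosteroid carrier Serpina6 (-0.59 ± 0.19, SE). Of 24 genes of acute phase cytokine signalling 2 were listed and went opposite ways. The kinase Tyk2 fell (-0.52 ± 0.19, SE; limma adjusted p = 0.013). Osmr, the oncostatin M receptor, rose (0.52 ± 0.20, SE; limma adjusted p = 0.019) but was at 0.230 to 0.985 RPM in controls and 0.380 to 1.98 RPM in MO males. At such levels the 1 added to each RPM value understates the change, so its size cannot be set beside that of Tyk2.

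The markers of other liver cells given here were all lower in MO males, and their part in the levels of the complement genes was not tested. Of 10 stellate cell markers Pdgfrb, Des and Reln were listed, with a summed level of 42.6 to 55.5 RPM in control males and 29.0 to 34.3 RPM in MO males. Of 6 bile duct markers Krt19 and Epcam were listed, at a sum of 11.4 to 17.99 RPM and 6.17 to 13.4 RPM. Vwf, 1 of 9 endothelial markers, was at 10.2 to 17.2 RPM and 7.69 to 10.9 RPM. None of 13 Kupffer cell and macrophage markers, 5 neutrophil markers or 4 erythroid markers was among the selected rows.

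How the genes varied from animal to animal within a group does not hold the contrast on which rows were selected. Each gene's log2 level was taken relative to the library median and to its group mean, and correlated over the 11 males. Over 10 such relations (5 pairs of genes, centred and not) p-values came from 100000 permutations within groups and were adjusted together. All values share the libraries and, after centring, the subtracted library median. The pairs were chosen after their values had been seen.

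After centring, the neighbours C1rl, C1r and C1s varied together. For C1rl and C1r, Pearson's r was 0.89 (permutation p = 0.00026, adjusted 0.0026) and Spearman's rho 0.93 (permutation p = 0.00046, adjusted 0.0046). Without control male 6 and MO male 1, the animals farthest from the median of C1rl, r was 0.86. Among 1324 genes, C1r was number 2 in likeness to C1rl, and C1rl number 3 in likeness to C1r; on the deposited scale, without centring, they were number 21 and number 230. For C1rl and C1s, r was 0.80 (permutation p = 0.0078, adjusted 0.039) and rho 0.91 (permutation p = 0.0013, adjusted 0.0065), and r without the same 2 animals was 0.88.

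For the partners C1r and C1s, r was 0.73 (permutation p = 0.021, adjusted 0.0499) and rho 0.76 (permutation p = 0.014, adjusted 0.036). Without control male 5 and MO male 3 r was 0.58. Among 1324 genes, C1s was number 14 in likeness to C1r after centring, and C1r number 21 in likeness to C1s. Without centring they were number 476 and number 45. On the deposited scale r was 0.62 (permutation p = 0.059, adjusted 0.085; rho 0.50, permutation p = 0.14, adjusted 0.15), and without control male 4 and MO male 3 it was 0.11, so that relation rests on those animals. On the same scale C1rl had r = 0.74 with C1r (permutation p = 0.020, adjusted 0.0499; rho 0.55, permutation p = 0.093, adjusted 0.13) and r = 0.76 with C1s (permutation p = 0.029, adjusted 0.0499; rho 0.78, permutation p = 0.011, adjusted 0.036). Without MO males 1 and 3 these were 0.69 and 0.73.

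Mbl2, on another chromosome, had a lower r with either protease after centring. It was 0.45 with C1r (permutation p = 0.17, adjusted 0.17; rho 0.67, permutation p = 0.042, adjusted 0.070) and 0.48 with C1s (permutation p = 0.16, adjusted 0.17; rho 0.55, permutation p = 0.11, adjusted 0.14). Without control male 1 and MO male 5 these were 0.70 and 0.71. On the deposited scale Mbl2 had r = 0.69 with C1r (permutation p = 0.030, adjusted 0.0499; rho 0.67, permutation p = 0.041, adjusted 0.070) and r = 0.44 with C1s (permutation p = 0.14, adjusted 0.17; rho 0.43, permutation p = 0.21, adjusted 0.21). Without control males 1 and 2 these were 0.81 and 0.70. Whether the neighbours are more alike among themselves than with Mbl2 was not tested.

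**Figure D4:**
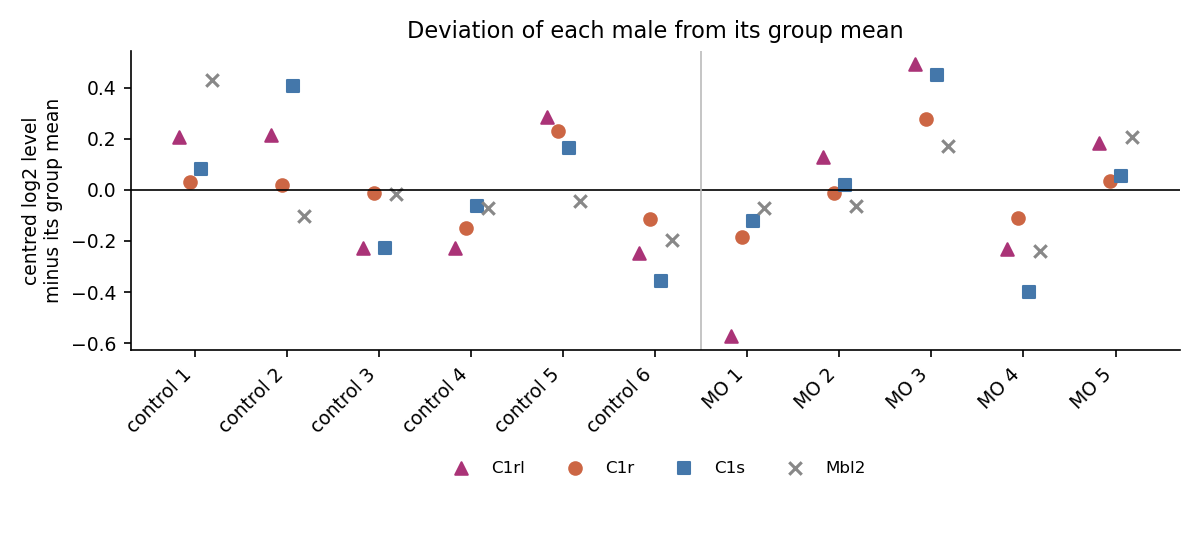
Log2 level of C1rl, C1r, C1s and Mbl2 in each male (horizontal axis), relative to the library median and to the mean of its group (vertical axis, log2 units). C1rl, C1r and C1s are above 0 together in control males 1, 2 and 5 and in MO males 3 and 5, and below 0 together in control males 3, 4 and 6 and in MO males 1 and 4.

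The genes most like each of the 3 were taken from all listed genes by Pearson's r of deviations from the group means on the deposited scale, over 11 males. They are a description without a test, since the highest of 1324 values were picked. For Mbl2 these were Gas2 (r = 0.98), the sulfotransferase Sult1c3 (0.95), Car8 (0.90), the annexin Anxa4 (0.90) and Flvcr2 (0.89), beside a median r of 0.41 with all genes. After centring, Gas2 was at 0.97, Sult1c3 at 0.92, Flvcr2 at 0.85, Anxa4 at 0.80 and Car8 at 0.52. For C1r they were the lipoprotein receptor Scarb1 (0.95), Lrrc8d (0.94), Gtf2ird1 (0.93), the cadherin Cdh2 (0.92) and Tnip1 (0.91), beside a median of 0.51. Centring lowered Scarb1 to 0.54. For C1s they were the Src family kinase Fgr (0.87), embigin, Emb (0.83), Myadm (0.82), RGD1561778 (0.79) and the cholesterol exporter Abca1 (0.78), beside a median of only 0.12. The deviations of C1s had r = 0.19 with those of the library median, beside 0.62 for Mbl2 and 0.76 for C1r. These 3 values are descriptions over 11 males, since each library median is shared by all genes.

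Since C1r and Mbl2 were both lower in MO males, the 250 bases before the start of each are shown, from RefSeq on GRCr8, a later build than the rn5 named in the submitters' processing notes. Of the 3 genes 2 had an entry in the promoter table used. Capitals mark matches to the motifs searched on both strands: CTGGGAA (an interleukin-6 response element of acute phase genes), TTCNNNGAA (STAT factors), TTGCNNAA (C/EBP factors) and TATAAA. The windows are chr4:159098763-159099012, plus strand, for C1r and chr1:237430793-237431042, plus strand, for Mbl2.
C1r: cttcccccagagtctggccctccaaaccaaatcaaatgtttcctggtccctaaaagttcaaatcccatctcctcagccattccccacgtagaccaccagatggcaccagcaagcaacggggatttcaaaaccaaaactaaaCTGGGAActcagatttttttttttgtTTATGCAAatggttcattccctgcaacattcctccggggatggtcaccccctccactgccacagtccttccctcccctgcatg
Mbl2: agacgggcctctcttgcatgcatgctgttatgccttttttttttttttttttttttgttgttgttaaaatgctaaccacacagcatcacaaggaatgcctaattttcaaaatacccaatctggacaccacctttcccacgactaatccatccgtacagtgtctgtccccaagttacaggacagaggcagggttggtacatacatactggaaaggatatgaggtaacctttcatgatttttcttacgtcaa

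The C1r window held CTGGGAA 109 to 103 bases before the start, a motif present in 9.56% of 33469 promoters of the same length. It also held a match to TTGCNNAA on the other strand, read here as TTATGCAA, 83 to 76 bases before the start, a motif present in 9.22% of promoters. The Mbl2 window held no match to these letters. TTCNNNGAA and TATAAA, present in 7.67% and 12.9% of promoters, matched in neither window. The motifs were chosen with the sequences in view, and a match is a run of letters, not a site shown to be used.

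In females, 1 of the 64 complement genes was listed, C5ar2, a receptor for the fragment C5a. It was at 3.18 RPM in the lowest control female, 5.57 RPM at the median and 9.80 RPM in the highest, and at 1.18, 1.73, 4.68, 2.64 and 3.50 RPM in MO females 1 to 5. MO females 3 and 5 lay inside the control range and the other 3 below it. The log2 change was -0.84 ± 0.32 (SE; exact permutation p = 0.028) in a table of 69 selected rows. The authors marked 24 of these rows as lower, and 24 (34.8% of all rows) passed that test as lower. That C5ar2 passed therefore says nothing particular about it. The diet effect on the 3 genes was not compared between the sexes.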

How the data were processed

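The deposited values are RPM with 1 added by the authors, a unit read from the numbers themselves, which no header states. The smallest entry is exactly 1, and with 1 taken off, 81.4% to 86.6% of male entries under 9 RPM fell on whole multiples of a single step for that library (tolerance 0.02 read). Whole reads were not recovered for nearly all genes, so no count test was run, and limma was used in place of it. The deposited fold column is the size of a log2 change and the deposited p-value is unadjusted, both for rows selected by the authors. Partek, STAR 2.3.1j and rn5 appear in the submitters' processing notes without their roles, and the counting rule is not given in the sources used here.

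From these values, limma 3.58.1 (limma-trend, R 4.3.3; pseudocount 1, no filter on low values) was fitted over all 1365 male rows, with the fit tested on simulated data. The correlation p-values were added after the values had been seen. Exact permutation tests enumerated all 462 divisions of the 11 males and were two-sided. SEs of ratios and of values relative to the library median are those of a difference of means. Named genes were the 3 genes, the listed genes of the lists, and the 5 genes most like each. Gldc, LOC102553847 and Rmrp fall outside that rule and were named after their values were seen. The genes, lists and tests were chosen with earlier results of these data known. Alternatives were other pseudocounts, a filter, centring, spread models, the replicate number as a block, subsets of controls, and leaving out each animal. The RefSeq table (GRCr8) served for gene order and promoters. Some listed genes are not reported here.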

Additional observations from a re-analysis of the deposited data

Results flagged for a closer look

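C1s in MO male 3, at 676 RPM, stood apart from the other MO males, the next of which was at 459 RPM. The gap took 0.765 of the range of the group, above the critical value of 0.71 for 5 samples. Mbl1 in control male 6, at 376 RPM, stood apart from the other controls, the next at 273 RPM, with a gap of 0.704 of the range against a critical value of 0.625 for 6 samples. Chance flags about 1 in 20 groups, and 20 groups were examined. MO male 3 had the highest level among MO males in 30.8% of the lower genes of the table, and control male 6 had the highest library median, 4.92.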

How the results depend on the processing

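The falls of Mbl2, C1s and C1r kept their direction and passed with other pseudocounts, a filter on low values, other spread models, both subsets of controls, and without each animal in turn. So did most rows selected for this contrast, except against control males 1 and 5 alone, where 531 of 1365 rows passed. With a pseudocount of 10, 1364 rows passed, and against control males 2, 3, 4 and 6 alone 1327 did. Leaving out each animal, 1282 to 1364 rows passed, so passing in these settings says nothing particular about the 3 genes. Without each animal in turn, limma log2 changes ranged from -0.81 to -0.66 for Mbl2, -0.75 to -0.56 for C1s and -0.67 to -0.51 for C1r. Centring on library medians, which takes out the fall shared by the selected rows, ended the calls. The exact tests then gave -0.16 (p = 0.24) for Mbl2, -0.034 (p = 0.84) for C1s and 0.0091 (p = 0.91) for C1r. The sign for C1r turned, as in limma (0.0091). Over all rows 1365 passed, 72 after centring (48 higher, 24 lower) and 531 against control males 1 and 5 alone; the latter has fewer samples. The sign of differences near 0 was not stable. With a pseudocount of 10 the Mbl2 to C1s ratio was 0.034 and the Mbl2 to C1r ratio -0.0070, against -0.17. Without each animal the Mbl2 to C1r ratio ranged from -0.22 to -0.090, the Mbl2 to C1s ratio from -0.23 to -0.056, Mbl2 over the library median from -0.21 to -0.075, the C1s to C1r ratio ranged from -0.092 to 0.034, C1s over the library median from -0.15 to 0.066 and C1r over it from -0.060 to 0.056. Same-numbered males were not paired by the data (r from -0.10 to 0.15, and 0 of 5 MO males correlated best with their own number). With the replicate number as a block, which takes control male 6 out of the estimate, the changes were -0.70, -0.60 and -0.51, all passing, and 1344 rows passed. Depth limits Mbl2 most, and transcripts outside the selected rows limit every statement on the pathway.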
